A study of Homo sapiens with 6 samples.

Results

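The replication-dependent histone genes encode the bulk of the histone protein that is packed onto DNA as it is copied. Members were chosen by the gene symbol that the array annotation gives: the older names beginning HIST1H, HIST2H, HIST3H or HIST4H, or the present names H1-1 to H1-6 and H2AC, H2BC, H3C or H4C followed by a digit. Of 18276 genes read by at least 1 transcript cluster that carried a single gene symbol, 55 were members, with 6 H1, 14 H2A, 16 H2B, 8 H3 and 11 H4 genes. RefSeq holds 69 protein-coding genes with such names, and the other 14 were read only by transcript clusters that carry several symbols. A transcript cluster is the set of probes that this array summarises as 1 value. Of the members, 49 lie on chromosome 6, 5 on chromosome 1 and 1, H4C16, on chromosome 12.

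H3 and H4 form the tetramer at the centre of the nucleosome, H2A and H2B join it as dimers, and H1 is the linker histone that binds where the DNA enters and leaves. Most of these genes have no introns, and their mRNAs end in a conserved stem-loop instead of a poly(A) tail. The stem-loop is bound by SLBP, the genes are transcribed under NPAT, a substrate of cyclin E and CDK2, and the mRNAs accumulate in S phase and are degraded when DNA synthesis stops. Each histone type is encoded by many near-identical copies, so that probes designed for 1 copy may also read another, and the assignment of a signal to 1 copy is uncertain.

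The samples were SUM159 cells, a human triple negative breast cancer line of the mesenchymal stem-like subtype, taken at day 6 of culture in a 3D matrigel. There were 3 control arrays and 3 TβRIII-KD arrays, labelled TGFBR3KD, in which a lentiviral short hairpin RNA in a puromycin-selected vector stably lowers TGFBR3, the type III receptor for transforming growth factor beta. Neither group had any other treatment. The labels do not name the hairpin on the arrays, each group was a stably infected population of the same line, and nothing states that the replicates were separate cultures, so the p-values reflect no more than the variation among these 6 arrays, and that variation could be technical. Values are log2 signals made by robust multi-array averaging (RMA), a difference is TβRIII-KD minus control, and an adjusted p is that of limma over all 22148 transcript clusters.

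TGFBR3 read 10.81, 10.89 and 10.56 on control arrays 1 to 3 and 9.72, 10.01 and 10.16 on TβRIII-KD arrays 1 to 3. It fell by 0.79 on the log2 scale (limma adjusted p = 0.0145; exact two-sided permutation p = 0.1, the smallest that 3 against 3 arrays allow), and this call was lost without control 1 (adjusted p = 0.0770), control 2 (adjusted p = 0.0554) or TβRIII-KD 2 (adjusted p = 0.0625). Arrays correlated at 0.995 to 0.996 within the controls and at 0.992 to 0.994 within TβRIII-KD, and array medians lay between 7.67 and 7.71. As a rough check of the cell type, since probes of different genes do not read on one scale, mean signals were ranked among all transcript clusters. The 7 mesenchymal markers exceeded between 79.8% (ZEB1) and 99.8% (FN1) of clusters. The 7 luminal markers were spread widely, with PGR above 8.15%, CDH1 above 11.1%, ESR1 above 24.5%, FOXA1 above 49.9%, GATA3 above 57.8%, KRT18 above 95.5% and KRT8 above 97.9%. Of the luminal markers, GATA3 was called higher (0.68, limma adjusted p = 0.00858), while KRT8 (-0.36, limma adjusted p = 0.0871) and KRT18 (-0.38, limma adjusted p = 0.217) had all TβRIII-KD arrays below the controls without passing. Of the mesenchymal markers, SPARC was called lower (-0.45, limma adjusted p = 0.0189). Of the leukocyte markers, CD68 exceeded 91.2% of clusters, CD14 31.9%, CD3E 20.8% and PTPRC 3.20%. Endothelial markers exceeded between 4.73% (EMCN) and 27.7% (CDH5), and adipocyte markers between 7.62% (FABP4) and 48.0% (PLIN1). None of 4 leukocyte, 4 endothelial and 4 adipocyte markers was called by limma at an adjusted p under 0.05, and 1 endothelial and 1 adipocyte marker had an unadjusted p under 0.05. Control 2 and TβRIII-KD 3 stood apart from their groups in the histone genes, as described below by array.

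The upstream sequences of 5 members introduce the classes: the 3 genes that passed the test, the gene with the highest difference, and an H1 gene to show the linker type. Each line gives 150 bases ending just before the transcription start, from RefSeq (GRCh38.p14), 5′ to 3′ on the strand of the gene, with exact matches to the motifs named below in capitals.
H4C4 (HIST1H4D), chr6:26189113-26189262, minus strand: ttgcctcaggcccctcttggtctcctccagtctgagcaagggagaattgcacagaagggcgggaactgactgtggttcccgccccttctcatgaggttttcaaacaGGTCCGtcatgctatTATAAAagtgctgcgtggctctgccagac
H2AC6 (HIST1H2AC), chr6:26124022-26124171, plus strand: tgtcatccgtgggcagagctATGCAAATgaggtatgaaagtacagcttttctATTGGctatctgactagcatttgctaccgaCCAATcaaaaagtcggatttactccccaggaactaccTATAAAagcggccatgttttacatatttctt
H2AC15 (HIST1H2AK), chr6:27838376-27838525, minus strand: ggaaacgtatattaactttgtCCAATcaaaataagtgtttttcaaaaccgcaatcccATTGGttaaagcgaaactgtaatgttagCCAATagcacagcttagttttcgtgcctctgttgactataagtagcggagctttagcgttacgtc
H3C2 (HIST1H3B), chr6:26032100-26032249, minus strand: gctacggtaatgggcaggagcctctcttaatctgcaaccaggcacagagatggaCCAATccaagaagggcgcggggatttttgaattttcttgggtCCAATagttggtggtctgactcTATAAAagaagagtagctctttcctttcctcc
H1-5 (HIST1H1B), chr6:27867589-27867738, minus strand: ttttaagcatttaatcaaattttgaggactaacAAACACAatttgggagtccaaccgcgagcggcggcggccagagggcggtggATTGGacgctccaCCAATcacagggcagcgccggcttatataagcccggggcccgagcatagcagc

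The motifs were searched on both strands in windows from 250 bases before to 50 after the start, for 64 promoters of these genes and all 27305 promoters in the table. They were the CCAAT box (CCAAT, reverse ATTGG), the TATA box (TATAAA), the octamer that POU2F1 binds (ATTTGCAT, reverse ATGCAAAT), the H1 box (AAACACA) and the core of the H4 element (GGTCCG). The classes had different promoters. CCAAT was in every one of 6 H1, 16 H2A, 18 H2B and 11 H3 windows but in 3 of 13 H4 windows, against 35.7% of all promoters. The octamer was in 11 of 16 H2A and 14 of 18 H2B windows, in 1 of 11 H3 windows and in 0 of 6 H1 and 0 of 13 H4 windows, against 1.80% of all. The H1 box was in all 6 H1 windows (5.76% of all promoters), GGTCCG was in 12 of 13 H4 windows (11.2% of all), and TATAAA was in 42 of 64 windows (12% of all). Of the 55 members, 50 had a promoter in the table.

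The histone genes stood mostly above the control level in TβRIII-KD cells, by small amounts. Of 55 members, 46 had a difference above 0 (83.6%, against 54.5% of all genes), with a median of 0.22 on the log2 scale against 0.01 over all genes. H4C4, H2AC6 and H2AC15 rose at an adjusted p under 0.05, 3 of 55 members (5.45%) against 1.26% of all genes called higher, and no member fell, against 2.22% of all genes called lower. With an absolute log2 difference over 0.5 required as well, 0 members were called in limma, against 0.772% of all genes higher and 1.55% lower. At an unadjusted p under 0.05, 14 members were higher (7.0% of all genes) and 0 were lower (8.64%), and 13 members had all TβRIII-KD arrays above all controls (10.2%). A mean signal at or above the median of all transcript clusters was read for 23 members (41.8%). Whether more cells were in S phase or each cell held more histone mRNA cannot be told apart in bulk RNA.

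The calls rested on the full set of arrays. Leaving out control 1, 2 or 3, or TβRIII-KD 1 or 2, left 0 members called higher, while leaving out TβRIII-KD 3 gave 6: H2AC6, H2AC15, H2AC21, H3C2, H3C12 and H4C4. The share of all genes called higher, 1.26% with every array, changed as well. It was 0.41%, 0.7% and 0.531% without control 1, 2 and 3. Without TβRIII-KD 1, 2 and 3 it was 0.837%, 0.531% and 1.62%, so fewer calls were not particular to the histone genes. The median over members was 0.12 without TβRIII-KD 2 and 0.34 without TβRIII-KD 3, with 41 and 53 of 55 members above 0. Without TβRIII-KD 3 the class medians were 0.22 for H1, 0.41 for H2A, 0.31 for H2B, 0.59 for H3 and 0.20 for H4, and without TβRIII-KD 2 they were 0.13, 0.16, 0.09, 0.25 and 0.20. The H2B median was 0.10 without control 3.

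**Figure D1:**
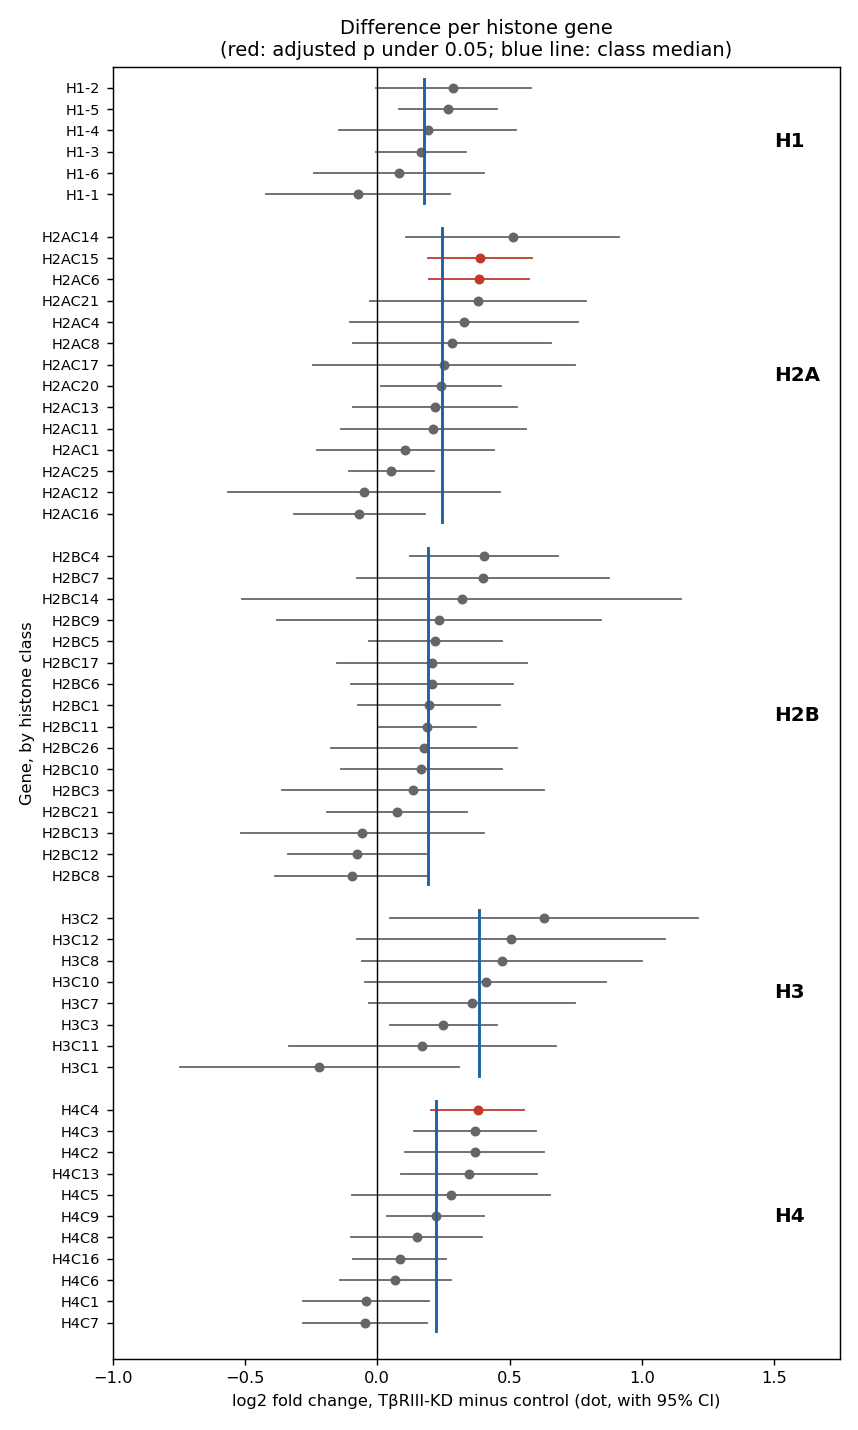
Difference between TβRIII-KD and control (log2, x axis) for each of the 55 members, by histone class; points are means over 3 arrays per group and bars the 95% confidence intervals of limma, red marks the 3 called members, and the blue line is the class median. Of the members, 46 lie to the right of 0, and most intervals cross it.

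H4, which with H3 forms the core tetramer, had the called member with the smallest adjusted p. H4C4 read 7.74, 7.88 and 7.83 on control arrays 1 to 3 and 8.24, 8.24 and 8.10 on TβRIII-KD arrays 1 to 3, so that the groups did not overlap. It rose by 0.38 ± 0.08 (SE, n = 3 per group; 1.30-fold; limma adjusted p = 0.0365). The call held without TβRIII-KD 3 (adjusted p = 0.0285) and was lost without each other array, with limma adjusted p from 0.0793 without control 2 to 0.162 without control 1. Of 11 H4 genes, 9 lay above 0 with a median of 0.22, and 1 was called higher (9.09%, against 1.26% of all genes). In 5 the TβRIII-KD arrays were all above the controls (45.5%, against 10.2% of all genes). H4C3 read 11.21, 11.27 and 11.17 in controls and 11.50, 11.81 and 11.46 in TβRIII-KD, a difference of 0.37 that did not pass (limma adjusted p = 0.104). H4C2 and H4C13 also separated without passing, at 0.37 and 0.35 (limma adjusted p = 0.153 and 0.165), and H4C9 at 0.22 (0.224). The mean signal of H4C13 exceeded only 8.38% of clusters. H4C7 (-0.05) and H4C1 (-0.04) had the lowest differences of the class, with overlapping groups.

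**Figure D2:**
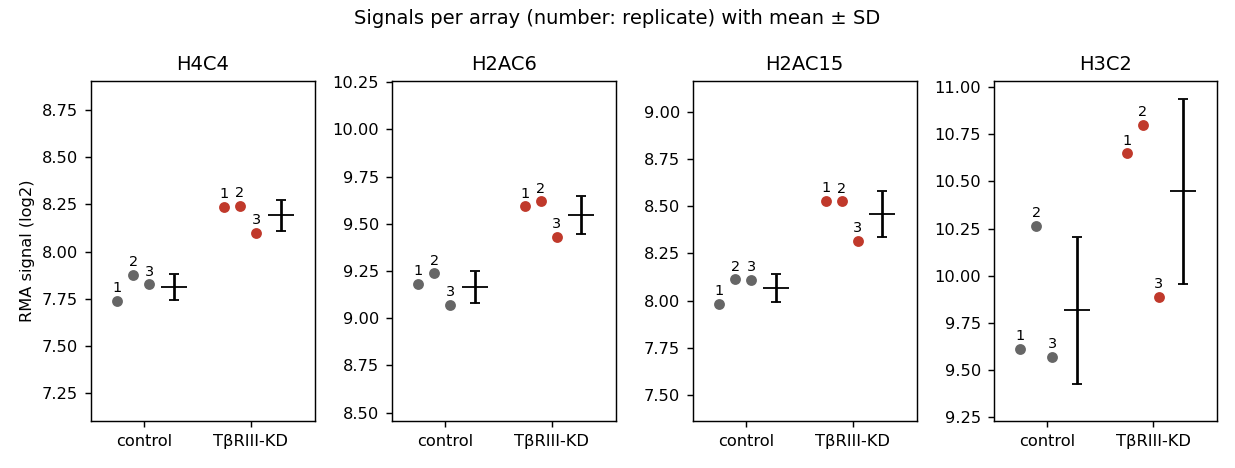
RMA log2 signal (y axis, a separate scale per gene) on each control (grey) and TβRIII-KD (red) array, numbered by replicate, with mean ± SD of 3 arrays, for the 3 called members and H3C2. TβRIII-KD arrays of H4C4, H2AC6 and H2AC15 all lie above the controls, whereas TβRIII-KD 3 of H3C2, at 9.89, lies below control 2, at 10.27.

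H3, the partner of H4, had the highest class median, 0.38 over 8 genes, and the widest spread between arrays. H3C2 read 9.61, 10.27 and 9.57 in controls and 10.65, 10.80 and 9.89 in TβRIII-KD. Its difference of 0.63 ± 0.26 (SE, n = 3 per group) was the highest of all members, but the groups overlapped and it did not pass (limma adjusted p = 0.283). Without TβRIII-KD 3 it was among the 6 members called. H3C12 differed by 0.51 ± 0.25 (SE; limma adjusted p = 0.405), with TβRIII-KD 2 at 8.29 and TβRIII-KD 3, at 7.18, below control 2, at 7.59. H3C8 (0.47), H3C10 (0.41) and H3C7 (0.36) had the same order of arrays, in that TβRIII-KD 1 and 2 lay above every control and TβRIII-KD 3 did not. H3C3, with a smaller difference of 0.25 (limma adjusted p = 0.211), was the H3 gene whose groups did not overlap (1 of 8, 12.5%, near the 10.2% of all genes). H3C11 was at 0.17 and H3C1 at -0.22, the lowest of the 55 members, with control 2 at 8.16 as its highest array.

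Of the H2A genes, which supply the dimers with H2B, 12 of 14 lay above 0, with a median of 0.25. Of these 14, 2 were called higher in limma (14.3%, against 1.26% of all genes), and in 3 the groups did not overlap (21.4%, against 10.2%). H2AC6 read 9.18, 9.24 and 9.07 in controls and 9.59, 9.62 and 9.43 in TβRIII-KD, a difference of 0.38 ± 0.08 (SE, n = 3 per group; limma adjusted p = 0.0461). H2AC15 read 7.98, 8.11 and 8.11 in controls and 8.53, 8.53 and 8.32 in TβRIII-KD, a difference of 0.39 ± 0.09 (SE, n = 3 per group; limma adjusted p = 0.0490). In both genes the lowest TβRIII-KD array lay above the highest control. Both calls held without TβRIII-KD 3 (limma adjusted p = 0.0288 and 0.0214) and were lost without each other array, with adjusted p from 0.0884 (without control 2) to 0.177 (without control 3) for H2AC6 and from 0.116 (without control 2) to 0.203 (without control 1) for H2AC15. The highest H2A difference, 0.51 for H2AC14, a gene whose mean signal exceeded only 2.79% of clusters, did not pass (limma adjusted p = 0.196). Its controls read 3.51, 4.19 and 4.15 and its TβRIII-KD arrays 4.39, 4.65 and 4.35, so that the groups did not overlap but control 1 was far below the other two. H2AC16 (-0.07) and H2AC12 (-0.05) were the H2A genes below 0.

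No H2B gene passed the test. Of 16 genes, 13 lay above 0, with a median of 0.19. At an unadjusted p under 0.05, 2 were higher (12.5%, against 7.0% of all genes), and none was called by limma after adjustment. H2BC4 had the highest difference, 0.40 ± 0.12 (SE, n = 3 per group; limma adjusted p = 0.139), from control values of 7.35, 7.34 and 6.92 and TβRIII-KD values of 7.62, 7.70 and 7.50. Its groups did not overlap, as was also so for H2BC11 (0.19), making 2 of 16 H2B genes (12.5%, near the 10.2% of all genes). H2BC7 was close in size at 0.40 but overlapped, with controls from 9.17 to 9.78 and TβRIII-KD arrays from 9.44 to 10.13. H2BC14 had the widest spread, with TβRIII-KD arrays from 9.42 to 10.93 and an SE of 0.36. H2BC8 (-0.10), H2BC12 (-0.08) and H2BC13 (-0.06) lay below 0.

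Among the linker histones, 5 of 6 genes lay above 0, with a median of 0.18, and none was called by limma. H1-5, with a mean signal above only 11.9% of clusters, read 5.33, 5.21 and 5.42 in controls and 5.55, 5.56 and 5.65 in TβRIII-KD. Its difference of 0.27 ± 0.08 (SE, n = 3 per group) did not pass after adjustment (limma adjusted p = 0.138), although the groups did not overlap. It was 1 of 2 H1 genes with that property (33.3% of 6, against 10.2% of all genes), the other being H1-3 (0.17). H1-2 was at 0.29, H1-6 at 0.08 and H1-1 at -0.07, each with overlapping groups.

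The members shared an order of arrays that the group means hide. Each gene was set against its own control mean, and the median over each class was taken per array. For H3 this gave -0.12, 0.36 and -0.22 on control arrays 1 to 3 and 0.56, 0.60 and -0.03 on TβRIII-KD arrays 1 to 3. H2A gave -0.01, 0.16 and -0.15 against 0.38, 0.43 and -0.06, H2B gave -0.01, 0.16 and -0.17 against 0.29, 0.36 and -0.11, and H1 gave -0.02, 0.13 and -0.08 against 0.22, 0.26 and -0.02. In these classes TβRIII-KD 3 lay within the range of the controls and control 2 was the highest control. H4 gave -0.09, 0.05 and 0.01 in controls and 0.08, 0.27 and 0.19 in TβRIII-KD, so that its class medians did not overlap. By class median control 2 was again the highest control, but TβRIII-KD 3 lay above all controls and above TβRIII-KD 1. By class mean control 3 (0.0310) was just above control 2 (0.0260). Control 2 was the highest control in 6 of 11 H4 genes (54.5%, against 37.6% of all genes). By class mean, TβRIII-KD 3 (0.12) was just below TβRIII-KD 1 (0.13). Counted by gene, it was the lowest TβRIII-KD array in 7 of 11 H4 genes (63.6%, against 39.5% of all genes). The difference between H4 and the other classes was not tested.

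Counted by gene, control 2 was the highest control in 41 of 55 members, against 37.6% of all genes, and TβRIII-KD 3 was the lowest TβRIII-KD array in 46 of 55, against 39.5% of all genes. TβRIII-KD 1 lay above all controls in 40 members (72.7%, against 30.6% of all genes) and TβRIII-KD 2 in 45 (81.8%, against 38.6%). TβRIII-KD 3 did so in 15 (27.3%), near the 29.7% of all genes, and 6 of these were among the 11 H4 genes. The 49 measured genes of S phase DNA replication, such as MCM helicase subunits and PCNA, moved along the arrays too, with medians of -0.08, 0.24 and -0.15 in controls and 0.27, 0.18 and -0.25 in TβRIII-KD. In 47 of these 49 genes control 2 was the highest control, and in 46 TβRIII-KD 3 was the lowest TβRIII-KD array. Their part in the histone differences was not tested.

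**Figure D3:**
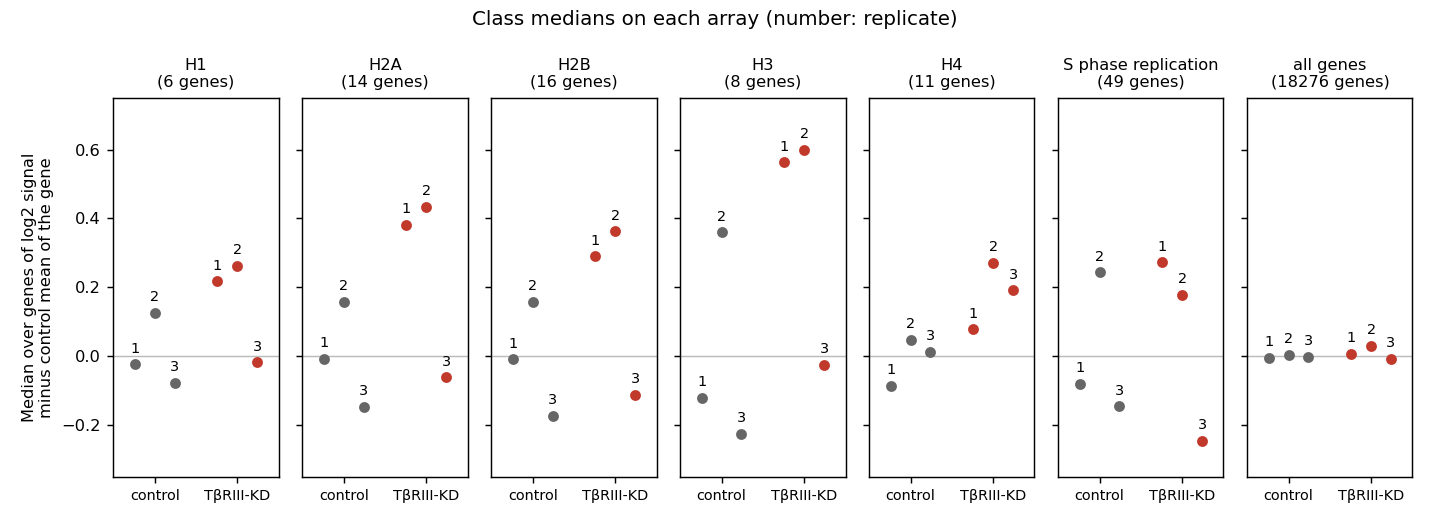
Median over the genes of each class of the log2 signal minus the gene's control mean (y axis), for each control (grey) and TβRIII-KD (red) array, numbered by replicate, with S phase replication genes and all genes on the same scale. Control 2 is the highest control and TβRIII-KD 3 the lowest TβRIII-KD array in H1, H2A, H2B, H3 and S phase genes, while medians over all genes stay near 0.

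**Figure D4:**
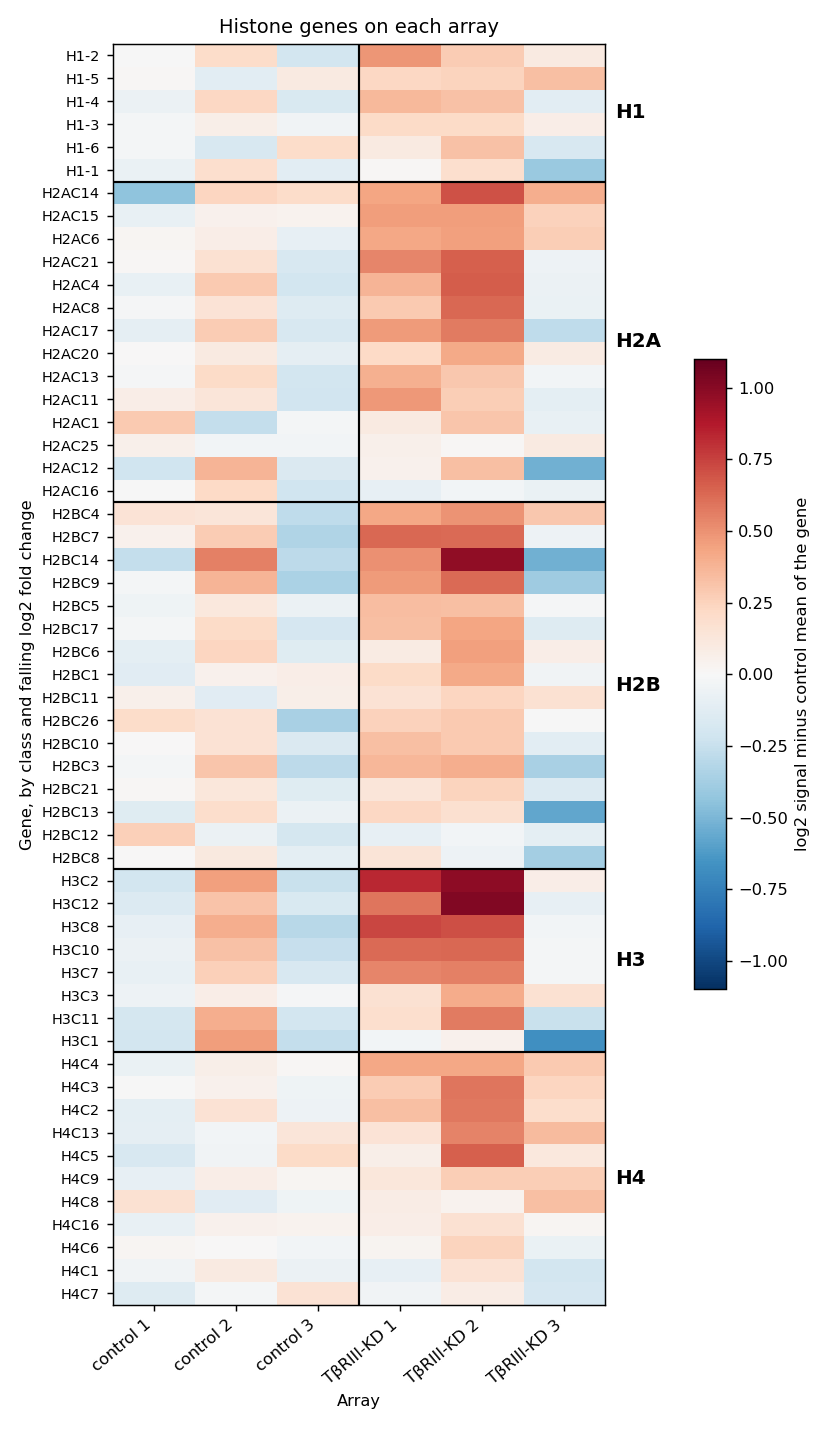
Log2 signal of each of the 55 members (rows, by class) on each of the 6 arrays (columns), minus the gene's control mean; red is above and blue below. TβRIII-KD 1 and 2 are red in most rows, with control 2 partly so, and TβRIII-KD 3 is above all controls in 15 rows (27.3%, against 29.7% of all genes).

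Many H2A and H2B genes lie in pairs, head to head in the genome, and share the DNA between their starts. RefSeq holds 11 such pairs with starts within 1000 bases, and both partners were measured in 9, with starts 215 to 248 bases apart. In 7 pairs both partners lay above 0. H2AC6 (0.38) and H2BC4 (0.40) were the closest pair, 0.02 apart, and only H2AC6 passed the test. In the other 2 pairs the signs were opposite, with H2AC8 at 0.28 and H2BC8 at -0.10, and H2AC13 at 0.22 and H2BC13 at -0.06. Without TβRIII-KD 3 both H2B partners lay above 0, H2BC8 at 0.04 and H2BC13 at 0.20. Their H2A partners were then higher too, H2AC8 at 0.46 and H2AC13 at 0.34, and stayed above H2BC8 and H2BC13. The H2A partner had the higher difference in 6 pairs and the H2B partner in 3. Exact two-sided permutation p-values of the within-pair difference over 3 against 3 arrays ran from 0.1, the smallest possible and reached in 3 pairs, to 1, so that no pair could pass 0.05. Genes with the octamer had medians of 0.27 (10 H2A genes) and 0.20 (13 H2B genes), and those without it had 0.22 (3 genes) and 0.18 (3 genes).

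**Figure D5:**
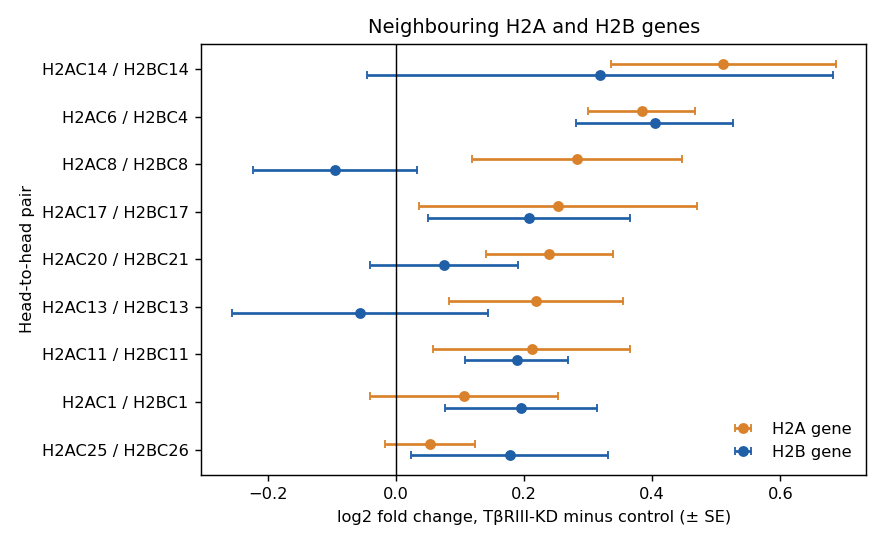
Difference between TβRIII-KD and control (log2) for the H2A partner and the H2B partner of each of the 9 head-to-head pairs with both measured; bars are SE of the limma fit. Both partners lie above 0 in 7 pairs, and H2BC8 and H2BC13 lie below 0.

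Histone genes were also read by 17 distinct transcript clusters with several symbols, of which 14 held at least 1 of the genes with no cluster of its own. Of the 17, 14 lay above 0 and 3 below, and none was called by limma at an adjusted p under 0.05. The 3 clusters shared by H3C13, H3C14 and H3C15, an H3 group of chromosome 1, differed by 0.60, 0.56 and 0.39, with adjusted p-values in limma of 0.208, 0.189 and 0.300. Both clusters of H4C11 and H4C12 had TβRIII-KD arrays above all controls, at 0.35 and 0.35 (limma adjusted p = 0.0815 and 0.0710). The cluster of H4C14 and H4C15 did so as well, at 0.35 (limma adjusted p = 0.152). Among all genes, 10.2% separated in this way. The cluster shared by H3C11 and H3C6 was the lowest at -0.33 (limma adjusted p = 0.209), below every member, whereas the cluster of H3C11 alone stood at 0.17. In the shared cluster all TβRIII-KD arrays lay below all controls, with the highest TβRIII-KD array at 6.66 and the lowest control at 6.71.

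Some histone genes also give polyadenylated mRNA, which is known in differentiated and non-dividing cells. Of 6 on such a list, 5 lay above 0 with a median of 0.25, and H2AC6 alone was called higher (16.7%, against 1.26% of all genes). The others were H2BC4 (0.40), H1-2 (0.29), H2BC5 (0.22), H2BC21 (0.07) and H2BC12 (-0.08), of which none passed. H2BC12 read 11.10, 10.78 and 10.65 in controls and 10.75, 10.81 and 10.74 in TβRIII-KD, with overlapping groups. The testis-specific copies H2BC1 (0.20), H2AC1 (0.11) and H1-6 (0.08), with H3-4 (0.12), whose symbol in the table falls outside the naming rule, had a median of 0.11 and none was called by limma (unadjusted p under 0.05 in 0 of 4). Mean signals of H2BC1, H1-6 and H2AC1 exceeded 5.89%, 8.15% and 10.6% of clusters, and that of H3-4 exceeded 41.4%.

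Genes that act on or beside these histones showed few calls in the same fit. Of 27 measured genes for histone transcription and mRNA processing, 15 lay above 0 with a median of 0.01, and none was called by limma. At an unadjusted p under 0.05, 2 were higher (7.41%, near the 7.0% of all genes). NPAT, the histone gene coactivator, was at 0.01 and SLBP, the stem-loop binding protein, at 0.08. NFYB, a subunit of the factor that binds CCAAT, had the smallest p of the list, at 0.34 (limma adjusted p = 0.120). Of 22 chaperones, 12 lay above 0 with a median of 0.04 and none was called, and UBN1, of the complex that deposits H3.3, was at 0.20 (limma adjusted p = 0.226). Of 13 variant histones, which are made outside S phase as well, 12 lay above 0 with a median of 0.15 and none was called. The highest of these was H2AZ2, which encodes the variant H2A.Z.2, at 0.45 (limma adjusted p = 0.183).

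Of 29 regulators of the G1/S transition, 19 lay above 0 with a median of 0.06. In limma 1 was called higher (3.45%, against 1.26% of all genes) and 1 lower (2.22% of all genes). CDK6, a kinase that phosphorylates RB1 in G1, rose from 8.51, 8.64 and 8.60 in controls to 9.17, 9.05 and 9.30 in TβRIII-KD, by 0.59 ± 0.09 (SE, n = 3 per group; limma adjusted p = 0.00858). TβRIII-KD 3 was its highest array, and the call was lost without control 1 (limma adjusted p = 0.0532). E2F5, a repressor E2F, fell by 0.41 (limma adjusted p = 0.0408), a call that held without TβRIII-KD 3 (0.0241) and was lost without each other array, with adjusted p from 0.0828 to 0.159. Of 49 S phase genes, 35 lay above 0 with a median of 0.07 and none was called in limma. The S phase gene with the smallest p was GINS3, a subunit of the replicative helicase, which was lower at -0.38 without passing (limma adjusted p = 0.114).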

How the data were processed

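RNA from SUM159 3D cultures was hybridised to 6 Affymetrix Human Gene 1.0 ST arrays. The authors deposited log2 values made by RMA with the oligo package in R 3.0.1, which corrects background, applies quantile normalization and summarises probes into transcript clusters. Quantile normalization fixes the overall distribution, so a shift common to all genes cannot be seen. The number of arrays limits the precision. The deposited values were used without further scaling. Samples were grouped by their titles. Differences were fitted with limma 3.58.1 in R 4.3.3 over all 22148 transcript clusters with Benjamini-Hochberg adjustment, and the procedure was tested on simulated data. A gene was represented by the transcript cluster with a single symbol and the highest mean signal. Members and lists were chosen with earlier results of these data known.

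Genes were named if they were TGFBR3 or GAPDH, if they were members that passed the test, if they were among the 2 highest and 2 lowest differences of a class, if they were on the polyadenylated or testis lists, or if they passed in another list (up to 4, or the smallest p where none passed). Other genes named in the text were chosen after their values were seen. GAPDH differed by 0.00 (limma adjusted p = 0.998). Alternatives covered moderation, array weights, the methods' t-test, a signal filter, symbol and duplicate handling, scaling, the replicate block, the fold limit and leaving out each array.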

Additional observations from a re-analysis of the deposited data

How the results depend on the processing

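The 3 calls among histone genes, H4C4, H2AC6 and H2AC15, kept their side of the threshold with an intensity trend, robust moderation, array weights, the signal filter, both kinds of row selection, median centring, repeated quantile normalization and the mean of all clusters. The count of members called higher was 0 with the methods' t-test after Benjamini-Hochberg adjustment (8 unadjusted), 0 with the fold limit, and 0 to 6 on leaving out each array. The share of all genes called higher was 0.0219% with that adjusted t-test and 0.41% to 1.62% on leaving out each array. The count of called genes in the 5 other lists, 1 higher and 1 lower, became 2 and 2 with an intensity trend, 2 higher with array weights, 3 and 2 with the signal filter, 0 and 0 with the adjusted t-test, 8 and 5 with the unadjusted t-test, 0 lower with the fold limit, and 0 to 4 higher and 0 to 1 lower on leaving out each array. The median of H4 became 0.37 with the signal filter, which leaves fewer genes. TGFBR3 stayed at -0.79 with an adjusted p of 0.198 by the adjusted t-test, and ran from -0.89 to -0.67 on leaving out each array. The cause of these changes was not tested.

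Nothing states whether the replicate numbers pair the samples. Deviations of same-numbered arrays correlated at -0.06, 0.11 and 0.31, and those of differently numbered arrays at -0.39 to 0.34, which does not settle the pairing. With the replicate number as a block, 4 members were called higher (H2AC6, H2BC4, H3C2 and H4C4, at limma adjusted p = 0.0340, 0.0482, 0.0357 and 0.0481), H2AC15 was not called (limma adjusted p = 0.0595), and 5 genes higher and 2 lower in the other lists.

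Signs turned in GAPDH and in the following named histone genes, none of which was called. GAPDH became -0.0066 with array weights and -0.00045 with median centring, and H2AC12 became 0.0329 with array weights. On leaving out each array the log2 difference ran from -0.0281 to 0.0262 for GAPDH, -0.24 to 0.19 for H2AC12, -0.0394 to 0.21 for H1-6, -0.20 to 0.0984 for H1-1, -0.18 to 0.0437 for H2AC16, -0.17 to 0.0544 for H2BC12, -0.21 to 0.0423 for H2BC8, -0.0310 to 0.38 for H3C11, -0.35 to 0.0103 for H3C1, -0.15 to 0.0352 for H4C1, -0.12 to 0.0331 for H4C7, -0.0119 to 0.19 for H2BC21, -0.0235 to 0.25 for H2AC1, -0.20 to 0.20 for H2BC13 and -0.0110 to 0.74 for H2BC14.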
